A study of Mus musculus with 12 samples.

Results

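The genes described here build, run and dismantle the mitotic spindle. They were taken as a list of 54 mouse gene symbols and matched to the gene names of the count table, and all 54 were found among its 21247 genes. All 54 also passed the filter on low counts, with 20454 genes tested in all. The count table held RNA-seq of periocular (eye-skin) biopsies from 6-week-old mice, in 4 libraries of ft/ft mice and 4 libraries of ft/ftMyD88-/- mice. The ft/ft mice carry a naturally arisen point mutation that inactivates filaggrin, a structural protein of the cornified epidermis, and the study describes them as freed of the *ma* mutation that used to accompany it. The ft/ftMyD88-/- mice are the cross of that line with mice lacking MyD88, the adaptor that passes on signals from Toll-like and IL-1 family receptors, so both groups share the filaggrin mutation, and both are described as BALB/c. The knockout of MyD88 is described as global, and each biopsy is whole skin with epidermis, hair follicles, glands, dermis and muscle. The 4 WT samples of the series were not analysed here. The question was how the mitotic genes stood in ft/ftMyD88-/- skin, which the study describes as inflamed with a thickened epidermis, relative to ft/ft skin.

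Mitotic genes are transcribed in waves that peak as cells pass from DNA replication into division. CDK1 bound to cyclin B drives entry, the kinetochore ties each centromere to spindle microtubules, the spindle assembly checkpoint holds the anaphase-promoting complex back until every chromosome is attached, and kinesins, condensins and the cytokinesis machinery do the mechanical work. In normal skin most dividing cells lie in the basal layer of the epidermis, in growing hair follicles and at the rim of sebaceous glands, and activated lymphocytes also divide. The amount of such a transcript in whole tissue follows the number of dividing cells as well as the amount in each of them, and in bulk samples these cannot be told apart.

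Many mitotic genes share 2 short promoter elements, the cell cycle genes homology region (CHR) and the CCAAT box. The CHR is bound by the DREAM and MuvB complexes, and the CCAAT box by NF-Y. The RefSeq table of promoters (build GRCm38.p6, 250 bases before to 50 bases after each start site) held 50 windows for 46 of the 54 genes, and none for *Ccna2*, *Cdc25c*, *Aurkb*, *Incenp*, *Spc24*, *Kif20a*, *Tpx2* and *Smc4*. The letters TTTGAA or TTCGAA (CHR) and CCAAT were searched on both strands. The promoters printed are those of the 4 genes with the largest increases among genes called higher that had 1 window with both elements, and they show where the shared elements lie. The matched letters are in capitals, 5′ to 3′ along the transcribed strand, so that a match on the other strand reads TTCAAA or ATTGG.
*Mki67*, chr7:135716330-135716629 on the minus strand: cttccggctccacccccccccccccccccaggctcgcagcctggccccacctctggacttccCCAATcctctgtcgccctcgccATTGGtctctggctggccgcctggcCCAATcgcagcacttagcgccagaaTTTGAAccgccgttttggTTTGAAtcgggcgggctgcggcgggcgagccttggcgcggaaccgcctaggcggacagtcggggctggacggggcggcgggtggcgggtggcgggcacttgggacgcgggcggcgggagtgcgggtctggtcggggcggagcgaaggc
*Spc25*, chr2:69206164-69206463 on the minus strand: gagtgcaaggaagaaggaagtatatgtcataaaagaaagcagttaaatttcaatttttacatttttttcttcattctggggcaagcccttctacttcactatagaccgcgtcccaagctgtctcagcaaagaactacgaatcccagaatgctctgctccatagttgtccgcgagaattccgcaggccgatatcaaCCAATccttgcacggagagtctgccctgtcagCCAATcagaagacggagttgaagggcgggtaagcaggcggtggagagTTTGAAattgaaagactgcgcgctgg
*Bub1*, chr2:127831810-127832109 on the minus strand: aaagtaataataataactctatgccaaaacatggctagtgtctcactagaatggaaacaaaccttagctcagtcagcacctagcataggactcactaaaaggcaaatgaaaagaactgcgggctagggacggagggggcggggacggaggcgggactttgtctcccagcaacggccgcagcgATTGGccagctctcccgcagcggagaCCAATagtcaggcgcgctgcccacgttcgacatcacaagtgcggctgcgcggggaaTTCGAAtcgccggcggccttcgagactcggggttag
*Kif11*, chr19:37376132-37376431 on the plus strand: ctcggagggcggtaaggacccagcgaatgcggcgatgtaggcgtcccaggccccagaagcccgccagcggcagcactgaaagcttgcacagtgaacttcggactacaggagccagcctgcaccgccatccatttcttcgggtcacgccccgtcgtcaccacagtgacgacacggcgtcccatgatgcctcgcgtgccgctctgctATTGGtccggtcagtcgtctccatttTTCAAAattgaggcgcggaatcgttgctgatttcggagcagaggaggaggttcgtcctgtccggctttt
Each window ends with the opening 50 bases of the transcript. The *Bub1* window had its CHR letters 14 bases after the start and CCAAT boxes 68 and 42 bases before it. *Spc25* had the CHR 24 bases after and CCAAT boxes 55 and 23 bases before the start, and *Kif11* had the CHR 19 bases and the CCAAT box 45 bases before it. In *Mki67* the CHR letters lay 116 and 98 bases before the start of the window, a start that is itself 71 bases inside the annotated gene, so that they lay 45 and 27 bases before the gene's outermost start.

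CHR letters were found in 36 of the 50 windows (72.0%), against 19.2% of the 32851 mouse promoter windows in the table. CCAAT was found in 76.0% of the members' windows against 37.4%, and at least 2 copies of it in 44.0% against 11.7%. Both elements stood together in 62.0% of the members' windows and in 7.52% of all windows. Within 100 bases before to 50 after the start, the share with CHR letters was 66.0% against 8.59%. The most CHR matches in any 25-base bin fell 0 to 25 bases after the start (14 matches), and the most CCAAT matches 75 to 50 bases before it (16 matches). A match is a run of letters and not a measured binding site. Windows with CHR letters made up 72.7% of those of the genes called higher and 70.6% of those of the genes not called, and the median log2 fold change was 0.54 for the 34 genes with the letters and 0.68 for the 12 without.

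**Figure D1:**
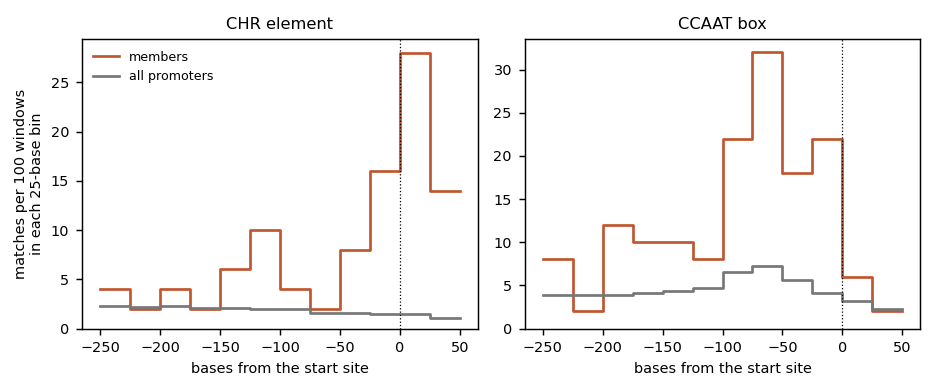
Matches to the CHR letters (left) and the CCAAT box (right) per 100 promoter windows, in 25-base bins of distance from the start site (x axis, bases), for the members' 50 windows (red) and all 32851 windows (grey). The members' CHR matches are densest at the start site, at 28 per 100 windows in the bin just after it, and their CCAAT matches 75 to 50 bases before it, at 32.0 per 100 windows.

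Sequencing depth ranged between 18941705 and 29255129 counts for ft/ft, with 15802957 to 27037997 counts for ft/ftMyD88-/-. Levels are given in CPM, as computed by edgeR from library sizes corrected with TMM factors, changes as log2 fold change of ft/ftMyD88-/- over ft/ft, and a gene was called when the Benjamini-Hochberg adjusted p of edgeR's quasi-likelihood test over all tested genes was under 0.05. *Myd88* itself was called higher, not lower, in ft/ftMyD88-/- at the RNA level (log2 fold change 0.42, SE 0.14, adjusted p = 0.0484), with overlapping groups. It had 749, 1003, 514 and 663 counts in ft/ft replicates 1 to 4 and 886, 1328, 945 and 737 in ft/ftMyD88-/-. Gene totals do not show which part of *Myd88* was deleted. *Tmem79*, the gene of the *ma* mutation, named after its values were seen, was lower in ft/ftMyD88-/-, with a mean of 59.2 CPM in ft/ft and 16.4 CPM in ft/ftMyD88-/-. The groups also differed in sex-linked transcripts, although the design text describes female mice. *Xist*, expressed from the inactive X chromosome, was counted 1, 0, 0 and 0 times in libraries whose label is ft/ft and 1136, 1261, 1964 and 567 times in those whose label is ft/ftMyD88-/-. For the Y-linked *Ddx3y* the counts were 1708, 1490, 1095 and 1864 for ft/ft, then 11, 2, 1 and 0. Genotype and sex therefore cannot be told apart in any result given here. The p-values set the difference between groups against the spread between these libraries, which edgeR estimates partly from other genes.

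Of the 54 mitosis and kinetochore genes, 39 were called higher in ft/ftMyD88-/- skin, none was called lower and 15 were not called. Over all 20454 tested genes, 10.9% were called higher and 12.3% lower. Each of the 54 fitted log2 fold changes was above 0, from 0.048 for *Anln* to 1.20 for *Mki67*, with a median of 0.57 (1.48-fold) beside 0.013 over all tested genes. In DESeq2 and limma voom no member had a fitted log2 fold change below 0 either, so none could be called lower there. In 36 of the 54 genes the 4 ft/ftMyD88-/- libraries all lay above the 4 ft/ft libraries, an arrangement found in 12.5% of all tested genes, and in none did they all lie below, which 14.2% of all genes did. Increases were moderate, with 4 genes at a log2 fold change of at least 1 (*Mki67*, *Spc25*, *Kif15* and *Bub1*). The lowest count of any member in any library was 32, at which counting error alone is 17.7%.

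**Figure D2:**
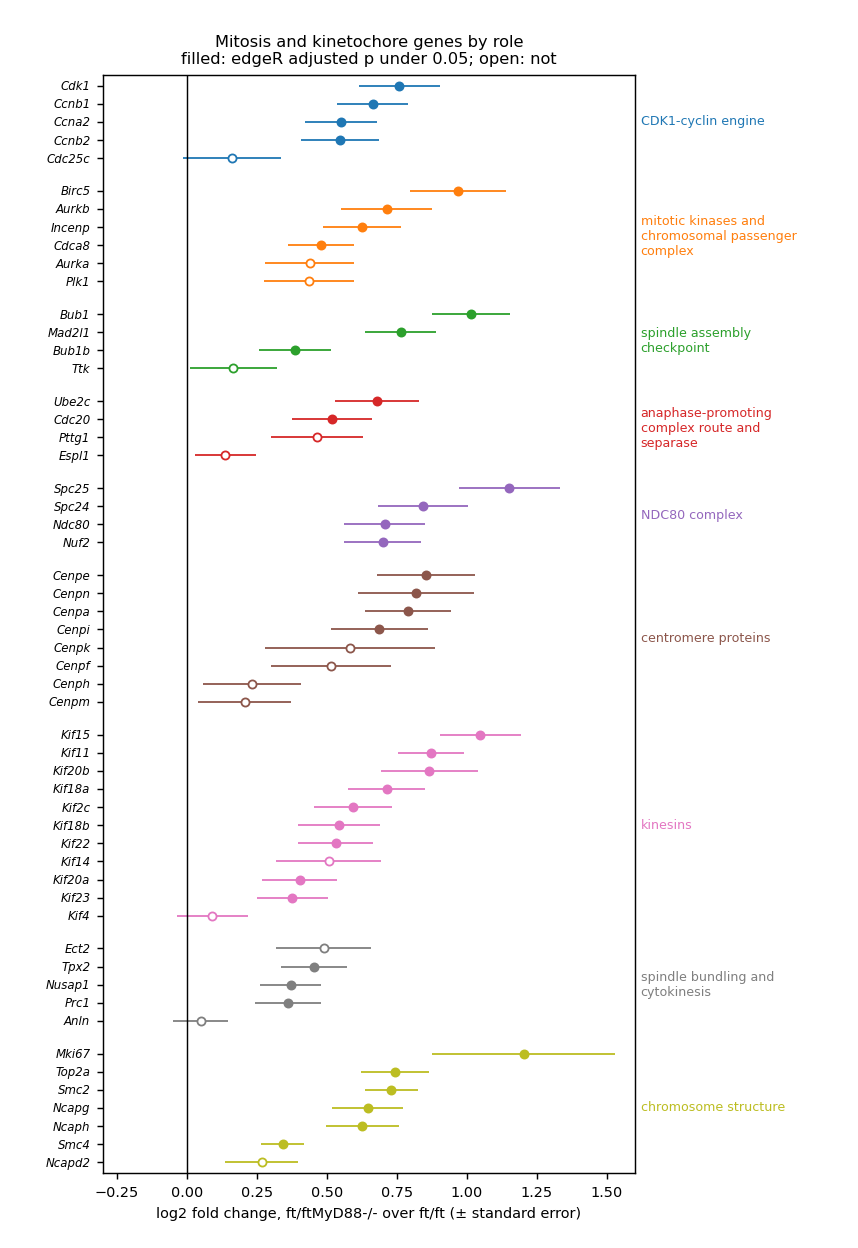
Log2 fold change of ft/ftMyD88-/- over ft/ft (x axis) with its standard error for each of the 54 genes, grouped by role; filled points passed an edgeR adjusted p of 0.05. All 54 points lie to the right of 0, and 39 are filled.

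The CDK1-cyclin engine starts mitosis, and 4 of its 5 genes rose (median log2 fold change 0.55). *Cdk1*, the kinase itself, was at 17.7, 15.7, 12.1 and 12.1 CPM in ft/ft replicates 1 to 4 and at 22.8, 27.0, 20.8 and 27.0 CPM in ft/ftMyD88-/- (log2 fold change 0.76, SE 0.14, adjusted p = 0.00321). *Ccnb1*, the mitotic cyclin B1, was at 24.0, 25.7, 22.4 and 19.5 CPM in ft/ft and at 36.1, 32.0, 32.3 and 44.8 CPM in ft/ftMyD88-/- (log2 fold change 0.66, SE 0.13, adjusted p = 0.00328). Neither gene's groups overlapped. *Ccna2* (cyclin A2) and *Ccnb2* (cyclin B2) changed by a log2 of 0.55 (SE 0.13) and 0.55 (SE 0.14), with adjusted p = 0.00940 and 0.0147. *Cdc25c*, a phosphatase that removes the inhibitory phosphates of CDK1, was not called, at 4.97, 4.55, 3.35 and 3.53 CPM in ft/ft and 5.08, 4.12, 4.22 and 5.0 CPM in ft/ftMyD88-/- (log2 fold change 0.16, SE 0.17, adjusted p = 0.546, 95% interval -0.22 to 0.54). Its groups overlapped.

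**Figure D3:**
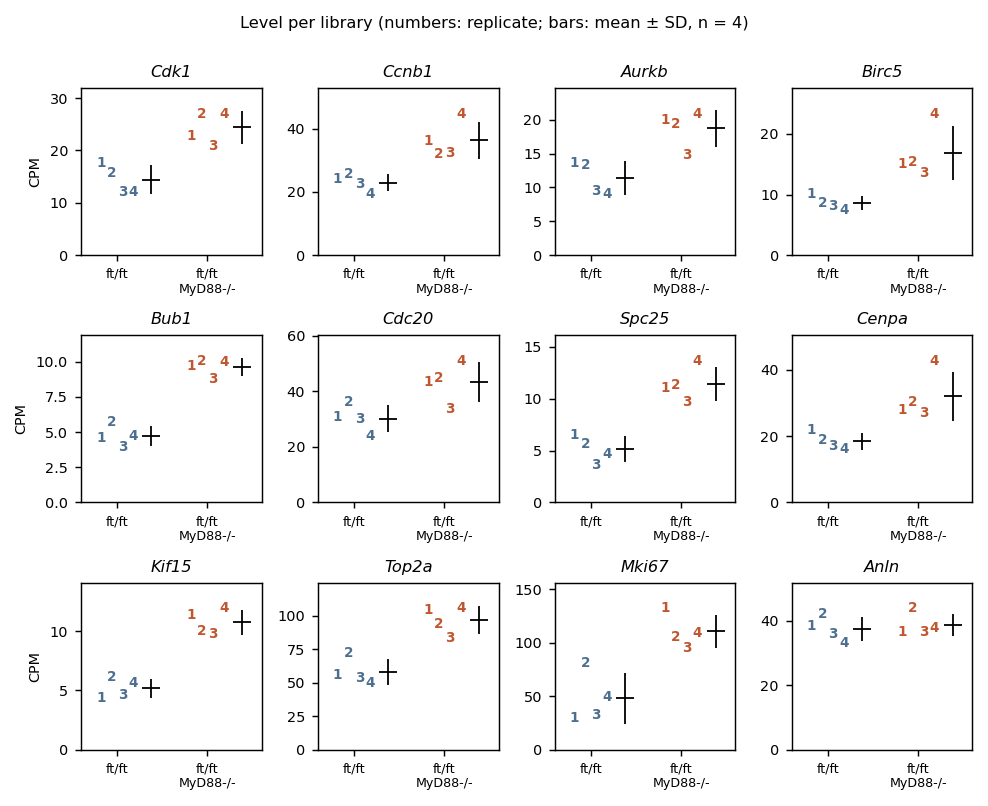
CPM of 12 named genes in each library, shown by its replicate number (blue, ft/ft; red, ft/ftMyD88-/-), with the mean ± SD of the 4 libraries in black; each panel's axis starts at 0. The groups are apart in 10 of the panels, while *Cdc20* overlaps in 1 library on each side and *Anln* overlaps throughout.

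Among the mitotic kinases and the chromosomal passenger complex, which corrects faulty kinetochore attachments and then steers cytokinesis, 4 of 6 genes rose (median 0.55). They were the 4 genes of the passenger complex. *Birc5* (survivin) led, at 10.1, 8.58, 8.09 and 7.48 CPM in ft/ft and 15.0, 15.4, 13.5 and 23.4 CPM in ft/ftMyD88-/- (log2 fold change 0.97, SE 0.17, adjusted p = 0.00219). *Aurkb*, the kinase of the complex, was at 13.7, 13.3, 9.48 and 9.09 CPM in ft/ft and 19.9, 19.4, 14.8 and 20.9 CPM in ft/ftMyD88-/- (log2 fold change 0.71, SE 0.16, adjusted p = 0.00812). In both genes every ft/ftMyD88-/- library exceeded every ft/ft library, and *Birc5* was highest in ft/ftMyD88-/- replicate 4. The scaffold *Incenp* and borealin (*Cdca8*) changed by 0.63 (SE 0.14) and 0.48 (SE 0.12) on the log2 scale, with adjusted p = 0.00739 and 0.0127. *Plk1*, a kinase of centrosome maturation and mitotic entry, missed the threshold at 8.49, 11.9, 8.48 and 7.44 CPM in ft/ft and 12.7, 12.8, 9.97 and 13.9 CPM in ft/ftMyD88-/- (log2 fold change 0.44, SE 0.16, adjusted p = 0.0687, 95% interval 0.086 to 0.79). Its ft/ft replicate 2 lay inside the ft/ftMyD88-/- range. The centrosomal kinase *Aurka* was close to it (log2 fold change 0.44, SE 0.16, adjusted p = 0.0647, 95% interval 0.093 to 0.78).

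In the spindle assembly checkpoint, which senses unattached kinetochores, 3 of 4 genes rose (median 0.57). *Bub1*, a checkpoint kinase seated on the kinetochore, was at 4.59, 5.71, 3.96 and 4.72 CPM in ft/ft and 9.68, 10.1, 8.74 and 10.0 CPM in ft/ftMyD88-/- (log2 fold change 1.01, SE 0.14, adjusted p = 0.000525). Among the 4 genes with a log2 fold change of at least 1 its ft/ftMyD88-/- libraries were the most even, with a coefficient of variation of 6.34%. *Mad2l1* (MAD2), which sequesters CDC20, changed by 0.76 (SE 0.13) on the log2 scale with adjusted p = 0.00155, and *Bub1b* (BUBR1), a subunit of the same inhibitory complex, by 0.39 (SE 0.13) with adjusted p = 0.0476. The *Bub1b* call was lost in 5 of 8 fits that left out 1 library, where its adjusted p rose to 0.138. *Ttk* (MPS1), the kinase at the head of the checkpoint, was at 13.8, 13.8, 9.09 and 12.8 CPM in ft/ft and 11, 14.6, 16.1 and 14.0 CPM in ft/ftMyD88-/- with overlapping groups (log2 fold change 0.17, SE 0.16, adjusted p = 0.481, 95% interval -0.17 to 0.51).

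On the route by which the anaphase-promoting complex releases sister chromatids, 2 of 4 genes rose (median 0.49). *Ube2c*, the ubiquitin-conjugating enzyme of the complex, was at 17.7, 16.7, 13.1 and 12.2 CPM in ft/ft and 23.9, 24.7, 18.9 and 28.2 CPM in ft/ftMyD88-/- without overlap (log2 fold change 0.68, SE 0.15, adjusted p = 0.00700). *Cdc20*, its activating subunit, was at 30.7, 36.0, 30.0 and 23.9 CPM in ft/ft and 43.5, 44.8, 33.7 and 50.9 CPM in ft/ftMyD88-/- (log2 fold change 0.52, SE 0.14, adjusted p = 0.0209). Here ft/ftMyD88-/- replicate 3 fell below ft/ft replicate 2, and the call was lost in 3 of 8 fits without 1 library. Securin (*Pttg1*), the inhibitor destroyed at anaphase, was not called (log2 fold change 0.46, SE 0.17, adjusted p = 0.0607, 95% interval 0.11 to 0.82). Its target separase (*Espl1*) was at 13.8, 14.6, 13.6 and 13.5 CPM in ft/ft and 17.5, 15.2, 15.0 and 13.3 CPM in ft/ftMyD88-/- (log2 fold change 0.14, SE 0.11, adjusted p = 0.399, 95% interval -0.10 to 0.37).

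The NDC80 complex is the rod that grips the microtubule at the outer kinetochore, and all 4 of its subunits rose (median 0.78). *Spc25* was at 6.52, 5.67, 3.63 and 4.64 CPM in ft/ft and 11, 11.4, 9.73 and 13.7 CPM in ft/ftMyD88-/- (log2 fold change 1.15, SE 0.18, adjusted p = 0.00105). *Ndc80* was at 7.33, 7.06, 6.75 and 6.06 CPM in ft/ft and 9.55, 12.3, 9.39 and 13.2 CPM in ft/ftMyD88-/- (log2 fold change 0.71, SE 0.14, adjusted p = 0.00463). *Nuf2*, with the smallest change of the 4, was at 9.09, 7.93, 7.98 and 7.40 CPM in ft/ft and 11.6, 13.3, 11.5 and 16.3 CPM in ft/ftMyD88-/- (log2 fold change 0.70, SE 0.14, adjusted p = 0.00385). None of these groups overlapped, and ft/ftMyD88-/- replicate 4 was the highest library for each. *Spc24*, which pairs with *Spc25* at the inner end of the rod, changed by 0.84 (SE 0.16) on the log2 scale (adjusted p = 0.00324).

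Of the centromere proteins 4 of 8 rose (median 0.64). *Cenpe*, the kinesin that carries chromosomes to the spindle equator, changed most, at 8.96, 13.3, 6.53 and 9.47 CPM in ft/ft and 17.5, 18.3, 16.2 and 17.4 CPM in ft/ftMyD88-/- (log2 fold change 0.85, SE 0.18, adjusted p = 0.00476). *Cenpa*, the histone H3 variant that marks the centromere, was at 21.7, 19.0, 17.0 and 16.1 CPM in ft/ft and 27.8, 30.4, 26.9 and 42.7 CPM in ft/ftMyD88-/- (log2 fold change 0.79, SE 0.15, adjusted p = 0.00355). Both were without overlap, and in *Cenpe* the ft/ftMyD88-/- libraries lay close together (coefficient of variation 4.92%) while the ft/ft libraries did not (29.5%). Of the constitutive centromere network, *Cenpn* and *Cenpi* rose, by 0.82 (SE 0.21) and 0.69 (SE 0.17) on the log2 scale with adjusted p = 0.0141 and 0.0139. *Cenpi* lies on the X chromosome and was at 3.99, 3.60, 3.35 and 3.14 CPM in ft/ft and 5.48, 6.83, 4.32 and 6.10 CPM in ft/ftMyD88-/-. Of the same network, *Cenpk*, *Cenph* and *Cenpm* were not called, with log2 fold changes of 0.58 (SE 0.30), 0.23 (SE 0.18) and 0.21 (SE 0.17) and adjusted p = 0.188, 0.370 and 0.408. *Cenpm* was at 5.27, 4.69, 4.52 and 3.57 CPM in ft/ft and 5.08, 6.14, 4.46 and 5.12 CPM in ft/ftMyD88-/-, with overlap (95% interval of the log2 fold change -0.16 to 0.57). The intervals reached from -0.081 to 1.25 for *Cenpk* and from -0.15 to 0.62 for *Cenph*. *Cenpf*, a large protein of the outer kinetochore, missed the threshold as well (log2 fold change 0.51, SE 0.21, adjusted p = 0.111, 95% interval 0.037 to 0.99).

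Kinesins are the motors that separate spindle poles and move chromosomes, and 9 of 11 rose (median 0.54). *Kif15* and *Kif11* (Eg5), the motors that push the poles apart, had the largest changes. *Kif15* was at 4.37, 6.11, 4.63 and 5.60 CPM in ft/ft and 11.3, 10.0, 9.73 and 12 CPM in ft/ftMyD88-/- (log2 fold change 1.05, SE 0.14, adjusted p = 0.000522). *Kif11* was at 15.6, 20.0, 15.8 and 16.1 CPM in ft/ft and 33.3, 30.7, 26.0 and 33.7 CPM in ft/ftMyD88-/- (log2 fold change 0.87, SE 0.12, adjusted p = 0.000477). For both the lowest ft/ftMyD88-/- library exceeded the highest ft/ft library. *Kif20b*, *Kif18a*, *Kif2c*, *Kif18b* and *Kif22* followed with log2 fold changes of 0.87 (SE 0.17), 0.71 (SE 0.14), 0.59 (SE 0.14), 0.54 (SE 0.15) and 0.53 (SE 0.14), and adjusted p between 0.00351 and 0.0188. *Kif2c* depolymerises microtubules at centromeres, *Kif18a* dampens chromosome oscillation and *Kif22* pushes chromosome arms. The midzone motors *Kif20a* and *Kif23*, needed for cytokinesis, changed by 0.40 (SE 0.13) and 0.38 (SE 0.13) with adjusted p = 0.0474 and 0.0498, just inside the threshold. Their calls were lost in 6 and 7 of the 8 fits without 1 library. *Kif14*, also of cytokinesis, was not called (log2 fold change 0.51, SE 0.19, adjusted p = 0.0683, 95% interval 0.10 to 0.91). The X-linked *Kif4*, a motor of chromosome arms and the midzone, was at 11.2, 14.4, 12.1 and 11 CPM in ft/ft and 14.1, 14.0, 11.1 and 12.7 CPM in ft/ftMyD88-/- with full overlap (log2 fold change 0.091, SE 0.13, adjusted p = 0.649, 95% interval -0.18 to 0.37).

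Genes of spindle bundling and cytokinesis changed least, with 3 of 5 called higher and a median of 0.37. *Tpx2*, a spindle assembly factor, *Nusap1* and *Prc1*, which bundle microtubules, changed by 0.46 (SE 0.12), 0.37 (SE 0.11) and 0.36 (SE 0.12) on the log2 scale, with adjusted p = 0.0155, 0.0278 and 0.0428. Without 1 library these calls were lost in 1, 4 and 6 of 8 fits, and those of *Nusap1* and *Prc1* also with the replicate number as a block. *Ect2*, the exchange factor that switches on RhoA at the cleavage furrow, was at 21.8, 17.3, 15.5 and 11.7 CPM in ft/ft and 23.0, 21.8, 20.6 and 27.7 CPM in ft/ftMyD88-/- (log2 fold change 0.49, SE 0.17, adjusted p = 0.0560, 95% interval 0.12 to 0.86). Its ft/ft replicate 1 lay inside the ft/ftMyD88-/- range. *Anln* (anillin), a scaffold of the contractile ring, was at 38.5, 42.2, 36.0 and 33.1 CPM in ft/ft and 36.5, 44.0, 36.6 and 37.8 CPM in ft/ftMyD88-/-, the smallest difference of all 54 genes (log2 fold change 0.048, SE 0.10, adjusted p = 0.765, 95% interval -0.17 to 0.27). Its fitted log2 change was -0.0061 without ft/ft replicate 4 and -0.015 without ft/ftMyD88-/- replicate 2.

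Chromosome structure held the largest change and the smallest p, with 6 of 7 genes higher (median 0.65). *Mki67*, which encodes the proliferation antigen Ki-67 that coats mitotic chromosomes, was at 29.6, 80.9, 32.4 and 48.8 CPM in ft/ft and 132, 106, 95.3 and 109 CPM in ft/ftMyD88-/- (log2 fold change 1.20, SE 0.33, adjusted p = 0.0362). Its groups did not overlap, but ft/ft replicate 2 stood well above the other ft/ft libraries and the coefficient of variation there was 49.2%, beside a median of 14.3% over the 54 genes. Leaving out that library gave a log2 fold change of 1.58 with adjusted p = 0.000733, while leaving out any other library lost the call, with adjusted p from 0.0540 to 0.0861. *Top2a*, the topoisomerase that untangles sister DNA, was at 55.5, 72.0, 53.9 and 50.1 CPM in ft/ft and 105, 93.9, 83.7 and 106 CPM in ft/ftMyD88-/- without overlap (log2 fold change 0.74, SE 0.12, adjusted p = 0.00134). The condensin subunits *Smc2*, *Smc4*, *Ncapg* and *Ncaph* rose by log2 fold changes of 0.73 (SE 0.10), 0.34 (SE 0.076), 0.65 (SE 0.13) and 0.63 (SE 0.13). *Smc2* had the smallest adjusted p of the 54 (0.000381), and the other 3 had adjusted p = 0.00729, 0.00403 and 0.00524. The remaining subunit of condensin I, *Ncapd2*, was at 22.2, 30.3, 28.8 and 22.4 CPM in ft/ft and 35.5, 33.6, 27.0 and 28.7 CPM in ft/ftMyD88-/- with overlap (log2 fold change 0.27, SE 0.13, adjusted p = 0.159, 95% interval -0.016 to 0.55).

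The libraries of a group were ordered much alike for most of these genes. The summed CPM of the 54 genes was 848, 961, 749 and 742 in ft/ft replicates 1 to 4 and 1272, 1255, 1094 and 1365 in ft/ftMyD88-/-. In ft/ft, replicate 2 was the highest library for 27 genes and replicate 1 for 25, and replicate 4 was the lowest for 29. In ft/ftMyD88-/-, replicate 4 was the highest for 32 genes and replicate 3 the lowest for 39. The sums of the 9 role groups did not overlap between the genotypes in any group. They came nearest for spindle bundling and cytokinesis, where the highest ft/ft library summed to 118.6 and the lowest ft/ftMyD88-/- library to 119.7 CPM, and for the anaphase-promoting complex route, at 75.2 and 76.4 CPM. Levels per kilobase of exon, which allow genes to be compared, were highest for *Cdc20*, at 16.1 CPM per kilobase in ft/ft and 23.1 in ft/ftMyD88-/-, and lowest in ft/ft for *Cenpk*, at 0.407 and 0.616 CPM per kilobase.

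**Figure D4:**
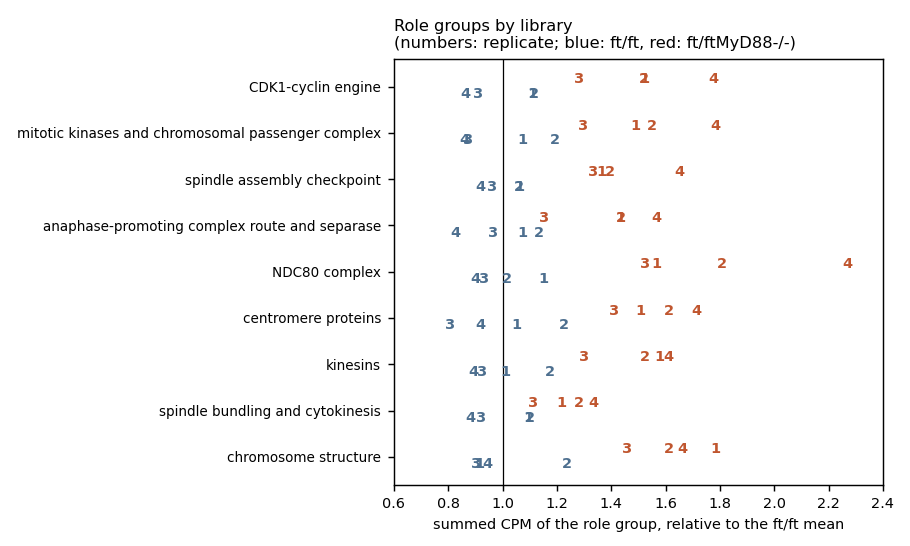
Summed CPM of each role group in each library, divided by the group's mean over the ft/ft libraries (x axis; 1 is the ft/ft mean), with numbers for the replicate (blue, ft/ft; red, ft/ftMyD88-/-). The red numbers lie to the right of all blue numbers in each of the 9 groups, and ft/ftMyD88-/- replicate 3 is the leftmost red number in all 9.

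The study's methods give HTSeq at default settings, which count by strand, and a library kit that does not mark strand, so reads of genes that overlap on opposite strands cannot be told apart. In the annotation, exons of other genes of the table overlapped 12 of the 54 genes, all on the opposite strand, and covered at least 10% of the exon length in 7 (*Kif20a*, *Ube2c*, *Kif4*, *Ncapg*, *Cdc25c*, *Ccna2* and *Prc1*), with 29.3% for *Kif20a* under *Cdc23*. For *Ube2c* the share was 22.8%, under *Tnnc2*, which was counted only 1 to 3 times per library. The skeletal muscle marker *Tnnt3* stood at 397 to 1529 CPM. What the overlap did to the counts of *Ube2c* was not tested. A pseudogene of cyclin B2, *Ccnb2-ps*, was listed separately at 7 to 25 counts. As a description of length, the rank correlation between log2 fold change and exon length was -0.035 over 12671 genes with a mean of at least 2 CPM and 0.13 over the 54. The rank correlation of a library's deviation from its group mean with exon length over all these genes was -0.30, 0.26, -0.030 and 0.15 in ft/ft replicates 1 to 4 and 0.26, -0.068, 0.20 and -0.39 in ft/ftMyD88-/-. Over the 54 genes it was -0.37, 0.16, -0.088 and 0.34 in ft/ft and 0.26, -0.099, 0.45 and -0.38 in ft/ftMyD88-/-. The highest ft/ftMyD88-/- library for most members, replicate 4, thus had the most negative value and the lowest, replicate 3, a positive one, while ft/ft replicates 1 and 2, both high, had opposite signs. The part of length in the order of the libraries was not tested.

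Of 29 other kinetochore and centromere genes, 15 were called higher and none lower (median 0.58). *Casc5*, the current *Knl1*, the platform on which the checkpoint kinases assemble, was at 5.74, 7.13, 4.07 and 5.56 CPM in ft/ft and 12.5, 11.1, 11.9 and 14.0 CPM in ft/ftMyD88-/- (log2 fold change 1.13, SE 0.16, adjusted p = 0.000648). *Zwilch*, of the complex that recruits dynein to the kinetochore, and *Hjurp*, the chaperone of the CENP-A histone, changed by 1.06 (SE 0.18) and 0.53 (SE 0.090) on the log2 scale. Of 24 other genes of the spindle, of entry and of cytokinesis, 10 were called higher and none lower (median 0.41). With scaling by library size only 21 were higher. That scaling called 4638 of all 20454 tested genes higher, in place of 2239 in the main fit. By p-value the first were *Pbk*, a mitotic kinase, at 1.08 (SE 0.16), and *Cdca2*, *Cep55* and *Bora* at 0.74, 0.77 and 0.77 on the log2 scale.

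Of 15 subunits and regulators of the anaphase-promoting complex, 4 were higher and 2 lower (median 0.049). Its inhibitor *Fbxo5* (EMI1) was at 4.93, 4.91, 4.41 and 4.03 CPM in ft/ft and 7.41, 7.90, 8.47 and 10.0 CPM in ft/ftMyD88-/- (log2 fold change 0.88, SE 0.14, adjusted p = 0.00135). The elongating enzyme *Ube2s* and the subunits *Anapc10* and *Cdc27* rose by 0.33, 0.40 and 0.28 on the log2 scale, and the subunits *Anapc2* and *Anapc5* were lower, at -0.42 (SE 0.073) and -0.26 (SE 0.080). In cohesin and condensin II, 4 genes were higher and 1 lower of 13 (median 0.089). *Cdca5* (sororin), which protects cohesion until anaphase, changed by 0.93 (SE 0.21), *Ncapg2* by 0.55 (SE 0.094), *Ncapd3* by 0.37 (SE 0.10), the cohesin release factor *Wapl* by 0.29 (SE 0.086) and *Ncaph2* by -0.28 (SE 0.082). With scaling by library size only, which raised the median of all genes to 0.19, *Anapc5* and *Ncaph2* were no longer called, at -0.088 and -0.10 on the log2 scale (adjusted p = 0.426 and 0.332).

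Genes of G1 and S entry were higher in 9 of 13 and lower in none (median 0.47). The smallest p-values belonged to *Ccne1* (cyclin E1), *E2f1*, *Cdk4* and *E2f3*, with log2 fold changes of 0.83 (SE 0.14), 0.62 (SE 0.13), 0.41 (SE 0.090) and 0.67 (SE 0.15). Among regulators of mitotic transcription 4 of 13 were higher and none lower (median 0.16). *Mybl2* (B-MYB), which binds the MuvB core at CHR promoters, was at 3.81, 4.80, 4.46 and 4.91 CPM in ft/ft and 18.3, 12.7, 8.71 and 18.4 CPM in ft/ftMyD88-/- (log2 fold change 1.68, SE 0.22, adjusted p = 0.000467). *Foxm1*, which joins it in G2, was at 11.7, 13.2, 9.20 and 10.6 CPM in ft/ft and 17.4, 17.0, 15.3 and 18.5 CPM in ft/ftMyD88-/- (log2 fold change 0.60, SE 0.13, adjusted p = 0.00520). Both were without overlap, and the *Mybl2* change exceeded that of every one of the 54 genes. *Tfdp1* and *E2f4*, an E2F partner and the E2F of DREAM, changed by 0.53 (SE 0.084) and 0.45 (SE 0.084). Of 14 brakes of the cell cycle, 1 was higher and 2 were lower (median -0.10), namely *Rbl1* (p107) at 0.33 (SE 0.089), and the inhibitors *Cdkn1c* (p57) at -1.10 (SE 0.21) and *Cdkn2b* (p15) at -0.33 (SE 0.11). *Cdkn2b* was not called under RLE (adjusted p = 0.0520) or library-size scaling (0.283). Under library-size scaling 4 brakes were higher and 1 lower, with a median of 0.080. That scaling called 4638 of all 20454 tested genes higher and 1326 lower, with a median of 0.19. The main counts stand beside 10.9% of all genes called higher and 12.3% called lower.

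**Figure D5:**
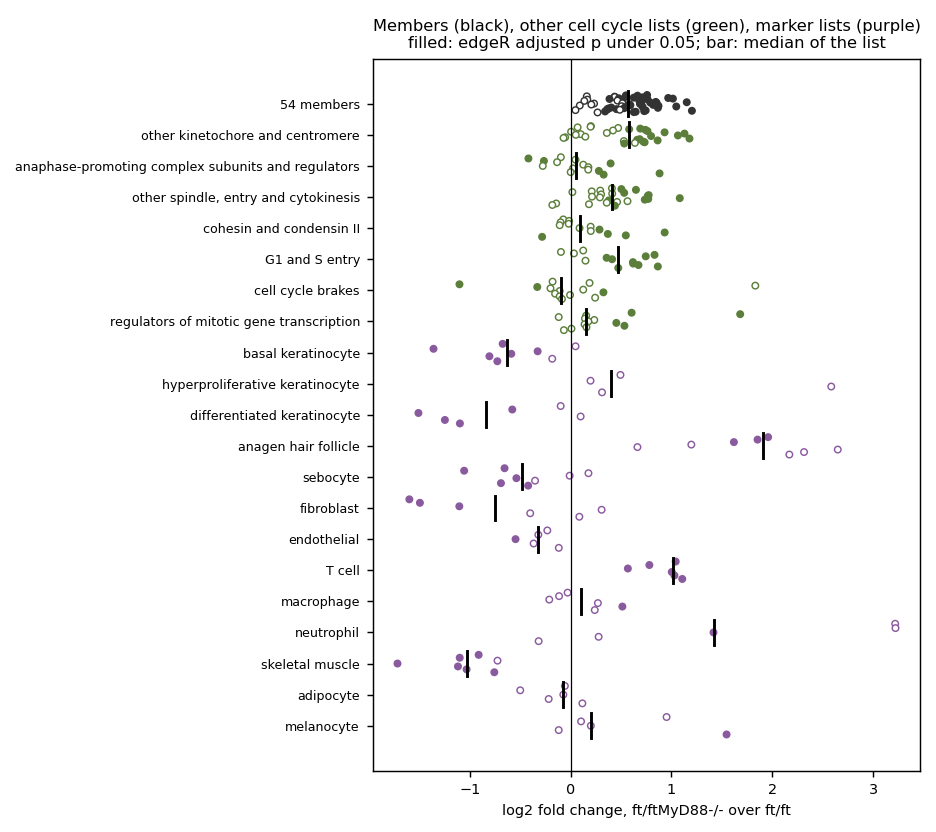
Log2 fold change of ft/ftMyD88-/- over ft/ft (x axis) for each tested gene of the 54 members (black), 7 other cell cycle lists (green) and 13 cell type marker lists (purple); filled points passed an edgeR adjusted p of 0.05 and black bars are the medians. The members' median of 0.57 lies beside -0.63 for basal keratinocyte markers and 1.91 for anagen hair follicle markers.

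Markers of several cell types moved between the same libraries, and their part in the members' change was not tested. Over all tested genes 10.9% were called higher and 12.3% lower, so that 1 call in a short list is near these shares. No marker in these lists was at 0 in all libraries. Of 8 basal keratinocyte markers 6 were lower and none higher, with summed levels of 17036, 17751, 17244 and 14544 CPM in ft/ft and 10119, 12356, 10930 and 11472 CPM in ft/ftMyD88-/-, opposite to the members. Markers of the growing hair follicle were higher in 3 of 8 and lower in none, at 186, 148, 144 and 244 CPM in ft/ft and 1610, 209.9, 366 and 845 CPM in ft/ftMyD88-/-. All 6 T cell markers were higher, with sums of 14.2 to 18.8 CPM in ft/ft and 24.7 to 32.6 CPM in ft/ftMyD88-/-. Of 5 tested neutrophil markers 1 was higher and none lower. Their sums were 43.2, 263, 38.4 and 31.1 CPM in ft/ft and 499, 713, 406 and 967 CPM in ft/ftMyD88-/-. Of the mean sum of 646 CPM in ft/ftMyD88-/-, *S100a8* and *S100a9* held 242 and 368 CPM. Neither of these was called (edgeR adjusted p = 0.126 and 0.123). The called marker was *Csf3r* (log2 fold change 1.42), while *Cxcr2* and *Mmp9* were not called, at 0.28 and -0.32. Of the macrophage and melanocyte markers 1 each was higher and none lower, of 6 and 5. Skeletal muscle markers were lower in 6 of 7 (7637 to 10566 CPM in ft/ft, 3014 to 5771 CPM in ft/ftMyD88-/-), sebocyte markers in 5 of 8, differentiated keratinocyte markers in 4 of 6, fibroblast markers in 3 of 6 and endothelial markers in 1 of 5. No hyperproliferative keratinocyte marker of 4 was called by edgeR, although 2 had an unadjusted p under 0.05. DESeq2 called 2 of the 4 higher and limma voom 1. Their fitted log2 fold changes were all above 0, from 0.20 to 2.58. The largest was that of *Krt16* (SE 0.75, edgeR adjusted p = 0.0530), whose groups did not overlap. None of the 5 adipocyte markers was called by edgeR, DESeq2 or limma voom, or had an unadjusted p under 0.05 in edgeR.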

How the data were processed

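RNA was measured in periocular skin of 4 ft/ft and 4 ft/ftMyD88-/- mice. Per the study's methods, the authors made polyA-selected TruSeq libraries, sequenced them single end, used HISAT and TopHat2 for alignment (GRCm38.p6) and HTSeq at default settings for counts per gene. Per the labels of these samples, a fixed-tissue protocol and Cell Ranger on GRCm38 were used instead, and this difference was not resolved; versions and annotation release are not given in the sources used here. The deposited values are raw counts per gene, with 1 column per library and no unused column.

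Genes with at least 10 counts over the 8 libraries (20454 of 21247) entered edgeR 4.0.16 under R 4.3.3 (TMM, glmQLFit with robust = TRUE, glmQLFTest, two-sided), with Benjamini-Hochberg adjustment over all tested genes. The standard error is the log2 fold change over the square root of its F value, and 95% intervals use the test's degrees of freedom, without adjustment for many genes. No molecular identifiers are described for these counts. Replicates differed by more than counting noise (lowest chi-square over degrees of freedom, 15.1), so none counted as a repeat. The script was tested on simulated data. Exon lengths came from GENCODE vM21 and promoters from RefSeq, both of GRCm38.

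Members and lists were chosen with earlier results of these data known. Values per library are given for the members with the largest and the smallest absolute log2 fold change of each role group, for *Cdk1*, *Ccnb1*, *Plk1*, *Aurkb*, *Cdc20*, *Ndc80*, *Cenpa*, *Kif11*, *Top2a* and *Mki67*, and for members on the X chromosome; from each other cell cycle list at most the 4 genes of smallest p in each direction are named. Alternatives were RLE and library-size scaling, DESeq2 1.42.0, limma 3.58.1 voom, 2 other filters, the replicate number as a block, 1 library left out in turn, an adjusted p under 0.01 and a log2 change of 1 or more in size.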

Additional observations from a re-analysis of the deposited data

Results flagged for a closer look

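In 4 of 108 sets of 4 libraries (54 genes in each genotype), 1 library lay apart from the other 3 by Dixon's 95% limit, where chance marks about 1 in 20. *Ccna2* was low in ft/ftMyD88-/- replicate 3, at 25.7 CPM beside 35.1, 35.5 and 35.7 CPM in the others. *Kif20b* was low in the same library, at 11 CPM. *Kif11* was high in ft/ft replicate 2, at 20.0 CPM, and *Anln* in ft/ftMyD88-/- replicate 2, at 44.0 CPM.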

How the results depend on the processing

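The median log2 fold change of the 54 genes stayed between 0.50 and 0.66 under RLE, DESeq2, limma voom, both other filters, the replicate block and each left-out library. Scaling by library size only moved it to 0.74, where the median of all tested genes was 0.19, so that the distance between them was 0.55 under both scalings; 46 members were then called higher, and over all genes 4638 were called higher and 1326 lower, so that 77.8% of calls were higher in place of 47.0%. The members called higher numbered 40 under RLE, 45 with DESeq2, 38 with limma voom, 39 with filterByExpr and 38 without a filter. Over all genes 2336, 2865, 2182, 2308 and 2202 were called higher in these settings, in the same order, and 2239 in the main fit. With 1 library left out 29 to 42 members were higher, and the lowest count was without ft/ft replicate 4. No alternative called a member lower. At an adjusted p under 0.01, 25 members were higher, with 951 genes higher and 1350 lower in all. With a log2 change of 1 or more in size the counts were 4, 752 and 520. With 1 library left out, 1464 to 2260 genes were higher in all. Of the 39 calls 29 held in all 15 fits, and 10 were lost without some library (*Ccnb2*, *Bub1b*, *Cdc20*, *Kif18b*, *Kif20a*, *Kif23*, *Nusap1*, *Tpx2*, *Prc1* and *Mki67*). *Anln* ranged from -0.015 to 0.11 without 1 library, turning negative (-0.015 without ft/ftMyD88-/- replicate 2, -0.0061 without ft/ft replicate 4); no other member changed sign in these fits. The count of genes without overlap was 36 to 45 over 2 scalings and the left-out libraries, added after seeing the data. Leaving out a library could only keep or raise this count, because the CPM values were not scaled anew. The 45 was under library-size scaling, and the share of all tested genes without overlap was counted in the main setting only. The labels number both groups 1 to 4, but same-numbered libraries did not deviate together (r from -0.15 to 0.025); with the replicate number as a block 35 members were higher, losing *Bub1b*, *Kif20a*, *Kif23*, *Nusap1* and *Prc1* and gaining *Cenpf*, with 1895 genes higher and 2144 lower in all.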
